A study of Mus musculus with 2 samples.

Results

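The spots described here are 60 places on a section of normal mouse brain where counts of inhibitory neuron genes made up the largest share of the RNA recorded. They were chosen by measured values. Of the 4992 barcodes of the brain section, 2628 had at least 4000 counts and 200 features. These were ranked by the summed counts of Gad1, Gad2, Slc32a1, Pvalb and Six3 over the barcode's total, and the top 60 were taken. A spot is a small region of tissue that can hold several cells of different types, so the 60 spots are regions rich in these genes and not single neurons.

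The series applied spRandom-seq, a method that primes total RNA at random, to a 5 µm section of formalin-fixed, paraffin-embedded brain and a 5 µm section of heart prepared in the same way. Both labels say normal, both give reverse transcription with a primer lacking cell barcode 2, and neither gives strain, age or any agent. Each tissue is 1 library, so differences are described without replicates or p-values. All intervals are 95% intervals for counting error only, and they assume that each count is a separate molecule.

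GABA is the main inhibitory transmitter of the adult brain. It is made from glutamate by the 2 glutamate decarboxylases that Gad1 and Gad2 encode, and Slc32a1 loads it into synaptic vesicles. Pvalb encodes parvalbumin, a calcium buffer of fast-spiking inhibitory neurons, and Six3 a homeodomain transcription factor of the forebrain. GABA neurons are scattered among excitatory cells in cortex and hippocampus. They are dense in the striatum, the pallidum, the zona incerta, parts of the hypothalamus and the thalamic reticular nucleus, a shell of inhibitory cells around the thalamus that contains much parvalbumin.

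A spot is known only by the 16 bases of its barcode, and the same 4992 barcodes were listed for both sections. The barcodes of the leading spots and of the spots on each side of the limit are given here, since the limit was narrow. They are designed array sequences, not mouse sequence.
Rank 1, 33 counts of the 5 genes among 11009: tggttgaacacgccaa
Rank 2, 32 among 10769: gtatgttagttctacc
Rank 3, 36 among 12557: gatcggagatacgcag
Rank 60, the last member, 6 among 4983: aatattaggcttctgg
Rank 61, the next spot outside, 6 among 5152: cctaacttatgttgga
The share at rank 1 was 2998 CPM (counts per 1000000 of the spot's counts), against 1204 CPM at rank 60 and 1165 CPM at rank 61. The same number of counts therefore put one spot inside the limit and the other outside it.

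Gad1, Gad2 and Six3 gave the most counts of the 5 genes. The 250 bases before their annotated starts are shown to place these genes in the genome. They come from RefSeq on GRCm38.p6, an older build than the mm39 that the counts were made on, and are written as the gene reads, 5′ to 3′. Capitals mark a match to TATAAA on either strand.
Gad1, chr2:70561879-70562128, plus strand: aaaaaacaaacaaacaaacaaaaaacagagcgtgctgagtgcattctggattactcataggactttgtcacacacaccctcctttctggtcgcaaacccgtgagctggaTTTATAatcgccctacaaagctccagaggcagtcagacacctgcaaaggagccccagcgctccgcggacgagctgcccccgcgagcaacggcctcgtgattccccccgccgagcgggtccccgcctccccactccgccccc
Gad2, chr2:22622077-22622326, plus strand: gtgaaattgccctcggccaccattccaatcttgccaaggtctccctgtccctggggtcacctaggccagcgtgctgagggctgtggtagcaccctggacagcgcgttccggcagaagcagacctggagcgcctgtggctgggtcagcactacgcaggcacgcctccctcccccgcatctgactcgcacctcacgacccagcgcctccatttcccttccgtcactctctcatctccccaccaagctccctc
Six3, chr17:85620584-85620833, plus strand: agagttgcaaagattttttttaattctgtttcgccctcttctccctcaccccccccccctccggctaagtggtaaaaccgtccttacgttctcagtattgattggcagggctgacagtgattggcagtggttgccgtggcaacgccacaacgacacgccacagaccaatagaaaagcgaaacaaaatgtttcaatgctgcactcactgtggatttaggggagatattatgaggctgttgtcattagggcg
The Gad1 window holds the TATA box letters on the minus strand, which 12.4% of 32851 windows of the same length held on either strand. TAATTA, the core read by many homeodomain factors, was searched on both strands as well, and so was CACGTG, an E-box. Neither was found in these 3 windows, whereas 4.84% and 6.02% of all windows held them. These are letter matches in short windows and say nothing about binding.

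The members were somewhat shallower than the other 2568 spots that passed the depth minimum. Their totals ran from 4354 to 18444 counts with a median of 7214, against 4002 to 125909 with a median of 8802 in the others. The 60 members held 534793 counts together and the others 33573435. When each spot was thinned to 4000 counts, the median was 1592 features in members (quartiles 1544 and 1630) and 1607 in the others (1541 and 1680). Without thinning the medians were 2540 and 2766. Ribosomal RNA gave 34.4% of member counts and 31.1% of the others' counts. Mitochondrial RNA gave 5.18% and 4.69% of the counts, but its median per spot was 5.20% in members and 5.36% in the others.

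The genes of the rule are given as a description, since they chose the spots. The summed counts of the 5 genes ran from 6 to 36 per member with a median of 12, and 25 members had 10 counts or fewer. In the other spots the median was 1 count, the highest 26, and 973 spots had none. Gad2 was counted in 60 of 60 members, with 54.7 CPM in the lowest spot, a median of 729 and 1532 in the highest. Gad1 was counted in 59 members and ran from 0 to 2009 CPM with a median of 694. Of the less abundant genes, Six3 was counted in 34 members (median 92.4 CPM, highest 575), Pvalb in 30 (median 27.3, highest 860) and Slc32a1 in 21 (median 0, highest 521). The members thus shared both decarboxylases and differed in the other 3 genes, each of which rested on few counts per spot: at most 7 for Six3, 6 for Pvalb and 3 for Slc32a1. Pvalb and Six3 were counted together in 23 members, and 19 members had neither.

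**Figure D1:**
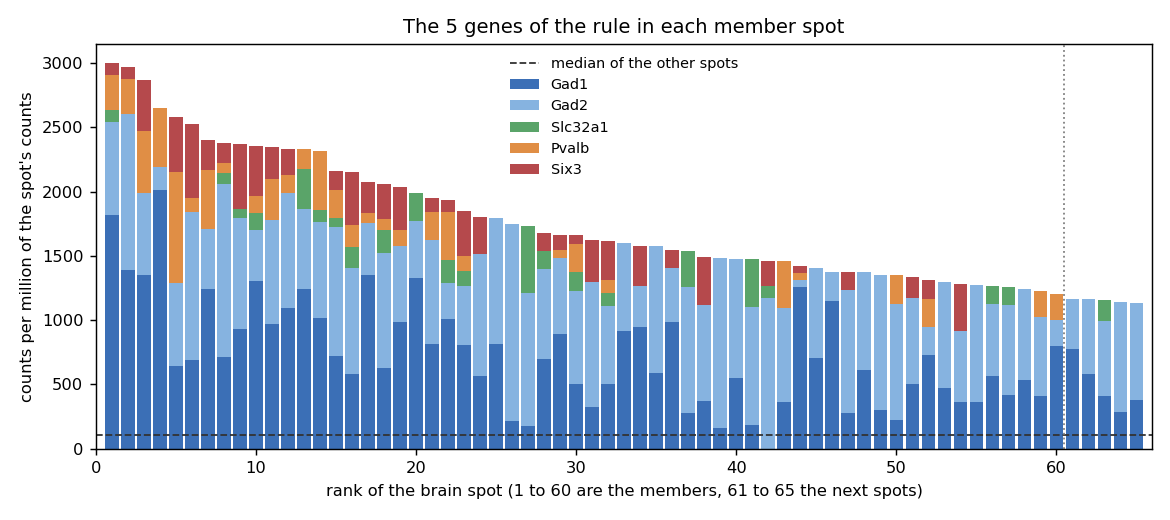
Counts of the 5 genes of the rule in each member spot, stacked, in CPM of the spot (y axis), with spots in order of rank (x axis). The dotted line is the limit after rank 60, and the dashed line is the median of the other spots, 104 CPM. Orange and red segments, Pvalb and Six3, are tallest at the left, where the first 20 members stand, while the blue segments of Gad1 and Gad2 fill most of the bars to the right.

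Summed over the 60 spots, Gad1 gave 808 CPM against 60.8 in the others, Gad2 720 against 68.7, Six3 159 against 5.27, Pvalb 140 against 10.3 and Slc32a1 56.1 against 8.79. Heart, where GABA neurons are not generally described, is given for reference. It is another tissue and another library, and whether its counts equal the background of the method in brain was not tested. Over 2805 heart spots that passed the same depth minimum (median 11892 counts) the 5 genes together gave 17.0 CPM (15.75 to 18.2), against 154 CPM in the brain spots outside the members. The top 60 heart spots by the same rule held 1 to 5 counts of the 5 genes and 167 to 509.5 CPM, below the lowest member at 1204 CPM. After thinning to 4000 counts Gad1 was counted in 95% of members (57 of 60), in 19.7% of the other brain spots and in 2.28% of heart spots. For Six3 the shares were 35%, 3.04% and 0.713%, and for Pvalb 26.7%, 3.86% and 0.856%.

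Each rule gene was also high in spots that the other 4 genes chose. These sets are ranked anew without the gene, so its level there did not enter the choice, but they share most spots with the members and come from the same library. Spots ranked without Six3 held 152 CPM of Six3 and the rest 5.39, a ratio of 28.1 (21.4 to 36.7), and 58 of these 60 spots were members. Without Pvalb in the ranking its ratio was 11.7 (8.88 to 15.3), from 124 CPM and 10.5. Gad1 held out had 618 CPM against 64.6 (ratio 9.56, 8.45 to 10.8), in a set that shared 44 spots with the members. Gad2 held out had 540 against 71.4 (7.56, 6.68 to 8.54), sharing 42, and Slc32a1 48.8 against 8.90 (5.48, 3.52 to 8.20), sharing 57.

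For all features, the genes of the rule included, the summed counts of the 60 members were compared with those of the 2568 other spots. A feature was compared where the mean of its CPM in both was at least 25. It counted as higher at a ratio of at least 2 and as lower at a ratio of at most 0.5. A feature below 25 CPM in the other spots passed only through the members and could only stand above 1. Among higher genes named outside the rule this holds for Lancl3, B130024G19Rik, Rnf144b, Pcp4l1, Stard9, Cnp, Cldn11, Scn4b, Bcan, Hapln4 and Ndn. The reverse holds for features below 25 CPM in the members. Of 4774 features compared, 182 were higher in the members (3.81%) and 315 were lower (6.6%). All 5 genes of the rule, which chose the spots, are among the 182. The median ratio was 0.98. Among spots within the members' quartiles of depth, 100 of the 182 were also higher and 162 of the 315 also lower. Over counts outside ribosomal and mitochondrial RNA the calls were 357 higher and 370 lower of 6445 features compared, so that 49.1% of the calls were higher in place of 36.6%. In a mixed spot, fewer cells of a type and less RNA per cell cannot be told apart.

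**Figure D2:**
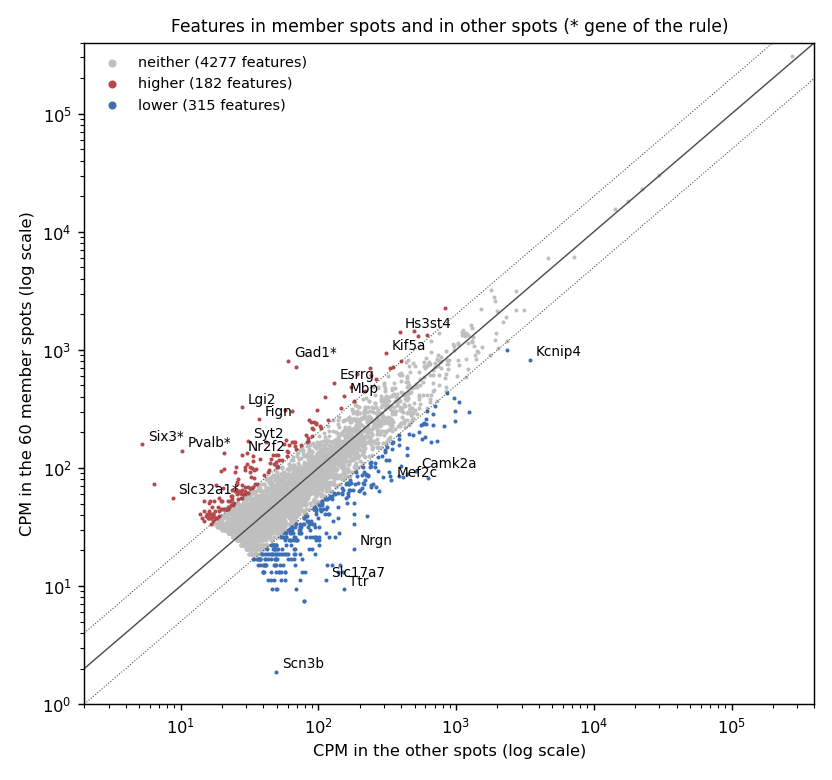
Each point is a feature compared, by its CPM in the other spots (x axis) and in the members (y axis), both on log scales. The solid line marks equal levels and the dotted lines a ratio of 2 and of 0.5. Lgi2, Fign and Esrrg stand far above the lines among the 182 higher features and Scn3b, Ttr and Slc17a7 far below among the 315 lower ones. An asterisk marks genes that chose the spots.

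Outside the rule, and among features above the floor counted in at least 10 members, the largest ratio belonged to Lgi2, which encodes a secreted protein of the leucine-rich glioma-inactivated family. It gave 325 CPM in members and 27.8 in the others, 11.7 times as much (9.88 to 13.8). It was counted in 37 members, with a median of 184 CPM and 1181 in the highest spot, and the median of the other spots was 0. Lancl3 followed at 72.9 and 6.46 CPM (ratio 11.3, 7.81 to 15.9), in 21 members. Fign, the microtubule-severing enzyme fidgetin, gave 258 and 37.1 CPM (6.96, 5.80 to 8.31) in 40 members, with a median of 194 CPM. Most members thus held Fign and Lgi2, but 20 and 23 members had no count of them.

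Syt2, a fast calcium sensor of transmitter release, gave 168 CPM in members and 30.9 in the others (5.44, 4.34 to 6.76). Btbd11, a scaffold protein of interneuron synapses, gave 310 and 57.1 CPM (5.43, 4.61 to 6.37) and was counted in 46 members. Chrm2, the inhibitory muscarinic acetylcholine receptor, gave 166 and 42.1 CPM (3.96, 3.16 to 4.90). It was counted in 42 members, with a median of 159 CPM.

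Esrrg, a nuclear receptor known as the estrogen-related receptor gamma, was counted in 53 members at a median of 396 CPM and a highest value of 1384, against a median of 101 CPM in the others. Its summed ratio was 4.02 (3.55 to 4.54). Nr2f2, a receptor of the COUP-TF family found in many interneurons, gave 129 and 28.0 CPM (4.61, 3.56 to 5.90). The non-coding gene B130024G19Rik, at 133 and 20.6 CPM (6.43, 4.97 to 8.22), overlaps Nr2f2 on the opposite strand. Whether the counts used strand is not given in the sources used here, so reads of these overlapping genes cannot be told apart. The same holds for Gad1, Slc32a1, Six3 and Lgi2, which each overlap a gene on the other strand.

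The remaining genes among the 15 were Ubash3b, a phosphatase, at a ratio of 4.78 and 44 members; Rnf144b, a ubiquitin ligase, at 4.73 and 28; and Pcp4l1, a relative of the calmodulin regulator Pcp4, at 4.66 and 28. Plch1, a phospholipase C, stood at 4.46 in 29 members, Ctxnd1 at 4.04 in 28 and Stard9, a kinesin, at 3.95 in 25. For these 6 genes no spot held more than 12 counts, so none rested on a single spot.

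Genes of GABA handling beyond the rule were higher by smaller ratios. Of 10 listed genes 9 were compared, with a median ratio of 1.46. The 3 higher genes were 33.3% of these, beside 3.81% of all features compared, and none was lower. The breakdown enzymes Aldh5a1 and Abat gave 71.1 and 155 CPM in members, 2.53 (1.78 to 3.50) and 2.07 (1.64 to 2.58) times the level in the others. Slc38a1, a neuronal glutamine transporter, stood at 2.08 (1.71 to 2.497). The chloride importer Slc12a2 stood at 1.60 (1.202 to 2.09) and the chloride exporter Slc12a5, which makes GABA inhibitory in mature neurons, at 0.73 (0.54 to 0.97).

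Among transcription factors of inhibitory neurons, 2 of 10 compared were higher (20%) and 1 was lower (10%), beside 3.81% and 6.6% of all features. The other 17 of the 27 listed were below the floor, and the whole list summed to 2435 and 1966 CPM (1.24, 1.17 to 1.31). Meis2, a homeodomain factor of striatal and other ventral forebrain neurons, gave 245 and 88.4 CPM (2.77, 2.31 to 3.30) and was counted in 47 members. Its partner Pbx3 stood at 2.09 (1.57 to 2.72) and Foxp2 at 0.47 (0.31 to 0.69). Dlx6os1, a non-coding RNA of the Dlx locus that specifies forebrain GABA neurons, gave 87.9 and 49.98 CPM (1.76, 1.29 to 2.35). Below the floor, Isl1, a factor of striatal and hypothalamic neurons, had 19 counts in members, 35.5 CPM against 3.84 (ratio 9.25, 5.39 to 15.03). Six3os1, which overlaps Six3 on the opposite strand, had 13 counts and 24.3 CPM against 2.26 (10.7, 5.47 to 19.5). Its reads cannot be told apart from those of Six3, which ranked the spots, so this ratio is a description only. These 13 counts are among the 1302 of the list's sum in the members. Dlx5 and Dlx6 had 4 and 5 counts, with ratios of 7.61 (1.96 to 21.4) and 4.36 (1.37 to 10.7). Lhx6, a factor of interneurons from the medial ganglionic eminence, had 3 counts and a ratio of 1.22 (0.25 to 3.62).

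Peptides that divide cortical interneurons into classes gave few counts in the members. Vip had no count, Cck 2, Sst 11 and Npy 7. Sst gave 20.6 CPM against 8.43 (2.44, 1.204 to 4.43), and Cck 3.74 against 31.5 (0.12, 0.014 to 0.43). Npy gave 13.1 against 3.66 CPM (3.57, 1.41 to 7.59), and Pnoc, the precursor of nociceptin, 6 counts and 11.2 against 3.48 CPM (3.22, 1.16 to 7.22). No count of Vip in 534793 allows up to 3 counts, and at the level of the other spots, 4.71 CPM, the expected number is also small. Of the 26 listed class markers 9 were compared, with 2 higher (22.2%, beside 3.81% of all features), none lower and a median ratio of 0.90. The higher genes were Nxph1, a secreted ligand of neurexins, at 625 and 192 CPM (3.26, 2.91 to 3.64) in 50 members, and Cplx1, a complexin of fast synapses, at 165 and 67.3 (2.44, 1.95 to 3.03). Erbb4, the neuregulin receptor of interneurons, stood at 1.64 (1.47 to 1.83).

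Several ion channels of fast-spiking neurons were higher in the members. Of 22 listed genes 19 were compared, 6 were higher (31.6%) and 3 lower (15.8%), with a median ratio of 1.60. Over all features the shares were 3.81% and 6.6%. Kcnc1, a potassium channel that shortens the action potential, gave 219 CPM, 2.44 (2.01 to 2.94) times the others' level. The sodium channel genes Scn1a and Scn4b stood at 2.03 (1.75 to 2.34) and 2.38 (1.57 to 3.47), and the calcium channel genes Cacna2d2 and Cacna1i at 3.80 (2.93 to 4.85) and 2.46 (1.86 to 3.18). Scn4b, at 22.0 CPM in the other spots, passed the floor only through the members. Cacna1i encodes a low-threshold channel of thalamic reticular and other bursting neurons. In the other direction, Kcnip4, a potassium channel partner, gave 828 against 3451 CPM (0.24, 0.22 to 0.26) and Kcnab1 0.40 (0.30 to 0.53). Kcnip4 set the sum of the list, which had a ratio of 0.71 with it and 1.26 (1.201 to 1.31) without it, a split chosen after its values were seen.

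Perineuronal nets are a matrix around fast-spiking cells, and heavy neurofilaments mark large axons. Of 12 genes of this kind 7 were compared, 4 were higher (57.1%, beside 3.81% of all features) and none lower, with a median ratio of 2.00. Nefh gave 97.2 and 35.2 CPM (2.76, 2.05 to 3.64), Nefm 166 and 83.1 (2.00, 1.60 to 2.47) and Bcan, the matrix protein brevican, 44.9 and 19.9 (2.26, 1.44 to 3.39). Hapln4, a link protein of the nets, stood at 2.17 (1.38 to 3.26), but at 0.86 when only spots within the members' quartiles of depth were compared. Of its 24 counts in the members, 7 were in 1 spot. Bcan and Hapln4, at 19.9 and 20.7 CPM in the other spots, passed the floor only through the members. Summed over all 12 genes, which needs no floor, the ratio was 1.17 (1.065 to 1.28). Acan and Spp1 lay below the floor with 10 counts each. Spp1, osteopontin, gave 18.7 CPM against 0.98 (19.0, 8.36 to 39.5), in 6 members, and Acan 18.7 against 5.54 (3.38, 1.59 to 6.35). Tnr, tenascin R, stood at 0.60 (0.50 to 0.72).

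Of 24 GABA and glycine receptor and scaffold genes 20 were compared, 1 was higher (5%) and 5 were lower (25%), beside 3.81% and 6.6% of all features compared. Their median ratio was 0.69 against 0.98 over all features. Gabra5, Gabrb2, Gabra4, Gabra2 and the GABA-B subunit gene Gabbr2 had ratios of 0.19 (0.06 to 0.45), 0.43 (0.33 to 0.55), 0.45 (0.32 to 0.61), 0.46 (0.33 to 0.63) and 0.47 (0.38 to 0.58). Gabra5, at 9.35 CPM in the members, passed the floor only through the other spots. The synaptic scaffold Gphn, gephyrin, stood at 1.10 (0.97 to 1.24). Gabra3 and Gabrg3 were above 1, at 1.37 (1.13 to 1.66) and 1.30 (1.12 to 1.496), as was the glycine receptor gene Glrb at 1.53 (1.18 to 1.95). The higher gene was Iqsec3, a regulator at inhibitory synapses, at 2.15 (1.65 to 2.76).

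**Figure D3:**
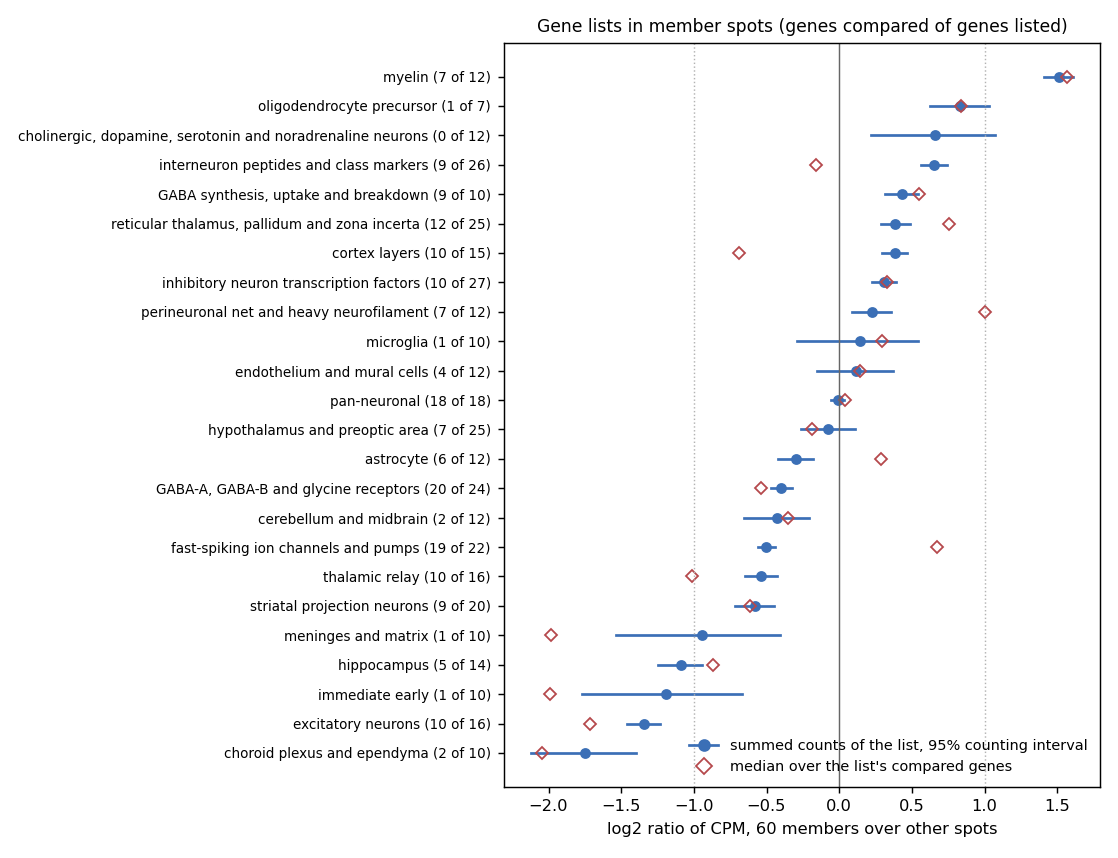
Ratio of members to other spots on a log2 scale (x axis) for 24 gene lists (y axis, with the number of genes compared of those listed). Blue points are summed counts with 95% counting intervals, red diamonds the median over the compared genes, and dotted lines a ratio of 2 in either direction. Myelin stands at the top with a summed ratio of 2.85 and the choroid plexus and excitatory neuron lists at the bottom at 0.30 and 0.39. The sum and the median fall on opposite sides of 0 for the lists of interneuron classes, cortex layers, astrocytes, fast-spiking channels and pan-neuronal genes.

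Excitatory neuron genes were low in the members. Of 16 listed genes 10 were compared, 7 were lower (70%, beside 6.6% of all features) and none was higher, with a median ratio of 0.31. The summed counts of all 16 genes, which need no floor, gave 1187 against 3019 CPM (0.39, 0.36 to 0.43). Slc17a7, the vesicular glutamate transporter of cortex and hippocampus, had 6 counts in 6 members, 11.2 CPM against 114 (0.099, 0.036 to 0.22). Slc17a6, the transporter of the thalamus, gave 29.9 and 61.7 CPM (0.48, 0.28 to 0.79). Camk2a, the calcium-dependent kinase of excitatory synapses, gave 93.5 and 511 (0.18, 0.14 to 0.24), Nrgn, neurogranin, 20.6 and 182 (0.11, 0.056 to 0.20) and Mef2c 78.5 and 337 (0.23, 0.17 to 0.32). Slc17a7 and Nrgn, at 11.2 and 20.6 CPM in the members, passed the floor only through the other spots. Neurod6, a factor of cortical and hippocampal projection neurons, had no count in the members and 27.7 CPM in the others. Grin2b, at 0.56 (0.50 to 0.62), and Rorb, at 0.90 (0.67 to 1.18), were not past 2-fold.

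The 10 smallest ratios were those of Scn3b, a sodium channel subunit (0.038, 1 count), Ttr, the transthyretin of the choroid plexus (0.061, 5 counts), Bcl11a, a factor of projection neurons (0.087), Iqgap2 (0.094), Dkk3 (0.095), Nptx1, a neuronal pentraxin (0.096), Slc17a7 (0.099), Enc1 (0.10), Nrgn (0.11) and Cracdl (0.12). Each rested on 11 or fewer counts in the members, and all upper bounds were below 0.25. All 10 lay below 25 CPM in the members, so they passed the floor only through the other spots and could only stand below 1. In the other spots these genes gave 49.5 to 182 CPM.

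Pan-neuronal genes summed to 7382 CPM in members and 7430 in the others (0.99, 0.96 to 1.03), and their ratio was 1.06 over counts outside ribosomal and mitochondrial RNA. All 18 were compared, with 2 higher (11.1%, beside 3.81% of all features), none lower and a median ratio of 1.03. Kif5a, a kinesin motor of axons, gave 939 and 310 CPM (3.03, 2.76 to 3.31). It was counted in 55 members, with a median of 792 CPM and a highest value of 2515 against a median of 323 CPM in the others. Elavl4, a neuronal RNA-binding protein, stood at 2.64 (2.20 to 3.14). Snhg11, a non-coding RNA of neurons, was at 1.34 (1.21 to 1.47) and the vesicle protein gene Syt1 at 0.89 (0.82 to 0.96).

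Myelin RNA was higher in the same spots. Of 12 myelin genes 7 were compared and all 7 were higher, beside 3.81% of all features, with a median ratio of 2.96. Cnp and Cldn11, at 18.9 and 24.8 CPM in the other spots, passed the floor only through the members. Summed over all 12 genes, which needs no floor, the ratio was 2.85 (2.66 to 3.055). Of the 60 members, 22 stood among the 10% of passing spots with the largest share of myelin counts. Mbp, the myelin basic protein, was counted in 49 members, with a median of 374 CPM and a highest value of 1974, against a median of 123 CPM in the others. Its summed ratio was 2.63 (2.29 to 3.01). Ugt8a, an enzyme of myelin lipids, gave 103 and 29.4 CPM (3.50, 2.62 to 4.59), and Mobp 101 and 32.0 (3.16, 2.36 to 4.15). Mal, Cnp and Cldn11 stood at 2.98, 2.96 and 2.56. The part of oligodendrocytes in the other differences between members and other spots was not tested.

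Other glial and vascular lists differed less. Astrocyte genes summed to 1062 and 1305 CPM (0.81, 0.75 to 0.88), with none of 6 compared past 2-fold and Slc1a2, the main glutamate transporter, at 0.70 (0.63 to 0.79). Their median ratio was 1.22, with Aqp4, the water channel of astrocytes, at 1.57 (0.95 to 2.43). Microglia genes summed to 93.5 and 84.7 CPM (1.10, 0.82 to 1.46) and endothelial and mural genes to 230 and 212.5 (1.08, 0.90 to 1.29). Lhfpl3, the 1 gene of 7 compared on the list for oligodendrocyte precursors, stood at 1.79 (1.53 to 2.09). Choroid plexus genes summed to 121.5 and 408 CPM (0.30, 0.23 to 0.38) through Ttr and Enpp2, the latter at 0.42 (0.31 to 0.56). The highest of the other spots reached 11220 CPM for Ttr and 11770 for Enpp2. Per spot the median of the list was 71.8 CPM in members and 59.0 in the others, 10 members stood among its top 10% of spots, and Ttr was counted in 5 of 60 members and 242 of 2568 other spots. Ptgds, a prostaglandin synthase of meninges and oligodendrocytes, stood at 0.25 (0.10 to 0.52). Egr1, an immediate early gene, also stood at 0.25 (0.10 to 0.52) on 7 counts, and the list of such genes summed to 54.2 and 124 CPM (0.44, 0.29 to 0.63).

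No list of a brain region was higher in most of its compared genes. The list for the reticular thalamus, pallidum and zona incerta had 12 of 25 genes compared, with a median ratio of 1.69. There were 5 higher (41.7%) and 3 lower (25%), beside 3.81% and 6.6% of all features. The higher genes were Syt2, Chrm2, Cacna1i, Unc13c, a release factor at 2.24 (1.85 to 2.68), and Nefm. The lower ones were Foxp2, Cdh12 at 0.39 (0.28 to 0.51) and Pde1a at 0.32 (0.23 to 0.45). Ecel1, a peptidase of reticular neurons, had 5 counts and a ratio of 2.85 (0.91 to 6.86).

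Of 20 genes of striatal projection neurons 9 were compared, with 1 higher (11.1%) and 2 lower (22.2%) and a median ratio of 0.65. Over all features the shares were 3.81% and 6.6%. Pde10a, the phosphodiesterase of these cells, gave 288 and 520 CPM (0.55, 0.47 to 0.65), and Bcl11b 0.37 (0.23 to 0.56). Drd1, Drd2 and Ppp1r1b, which define striatal projection neurons, had 1, 8 and 5 counts in the members. The other lower gene was Ano3, and the higher gene was Scn4b, which is on the fast-spiking list as well. At 22.0 CPM in the other spots, Scn4b passed the floor only through the members and could only stand above 1. The sum of the list stood at 0.67 (0.61 to 0.73), but at 1.06 with a minimum of 8000 counts per spot and at 1.02 with 120 members.

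Thalamic relay genes were lower in 5 of 10 compared (50%) and higher in none, with a median ratio of 0.50. Over all features 6.6% were lower and 3.81% higher. Ntng1 stood at 0.35 (0.26 to 0.46), Synpo2 at 0.37 (0.23 to 0.58), Lef1 at 0.40 (0.20 to 0.72) and Prkcd at 0.48 (0.27 to 0.79), and Slc17a6 was the other lower gene. Hippocampal genes were lower in 2 of 5 compared (40%), Hpca at 0.13 (0.056 to 0.26) and Zbtb20 at 0.49 (0.43 to 0.56). Zbtb20 stood at 1.24, however, among spots within the members' quartiles of depth. The cortex list held a single higher gene of 10 compared (10%), Hs3st4, an enzyme that modifies heparan sulfate, beside 3 that were lower (30%). It gave 1419 and 389 CPM (3.65, 3.39 to 3.93) in 52 members, with a median of 1135 CPM and 3955 in the highest spot. Mef2c and Foxp2 were among the lower genes, so Hs3st4 went against its own list. The list summed to 2096 and 1606 CPM (1.305, 1.23 to 1.385), with 759 of its 1121 counts in the members from Hs3st4.

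Hypothalamus genes varied among the members. Their sum was 447 CPM in members and 471 in the others (0.95, 0.83 to 1.08). The imprinted gene Ndn, at 2.03 (1.29 to 3.05), was the 1 higher gene of 7 compared (14.3%, beside 3.81% of all features). At 22.1 CPM in the other spots, Ndn passed the floor only through the members and could only stand above 1. Per spot the sum ran from 0 to 3992 CPM, and 6 members had none. The direction of the sum depended on the choice of spots, with 1.87 at a minimum of 8000 counts and 1.78 with 120 members. Pmch, the precursor of melanin-concentrating hormone, had 46 counts in 12 members, of which 16 were in a single spot. Cholinergic and monoamine genes were below the floor, with the choline acetyltransferase gene Chat at 7 counts, the acetylcholinesterase gene Ache at 16 counts (2.62, 1.48 to 4.31) and Th at 1. Their sum was 89.8 CPM in members and 56.7 in the others (1.58, 1.16 to 2.11). The list for cerebellum and midbrain summed to 318 and 427 CPM (0.74, 0.64 to 0.87), with none of 2 compared past 2-fold.

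Among the members, the genes that led the comparison followed the rank. Lgi2 gave 533 CPM in ranks 1 to 20, 278 in ranks 21 to 40 and 73.5 in ranks 41 to 60, on 117, 46 and 11 counts. Just outside, ranks 61 to 120 gave 51.3 CPM, and spots beyond rank 480 gave 25.8. Hs3st4 gave 1869, 1629 and 528 CPM in the 3 groups of members and 399 just outside them. Esrrg went from 661 and 609 to 227 CPM and Kif5a from 1126 and 947 to 655. Pvalb and Six3, which took part in the ranking, went from 232 and 242 CPM to 66.8 and 60.2. In ranks 41 to 60 these levels were nearer to those of ranks 61 to 120 than to those of ranks 1 to 20. The first 20 members were also the deepest, with a median total of 11630 counts against 6722 and 6605 in the next groups, and the part of depth in this course was not tested.

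**Figure D4:**
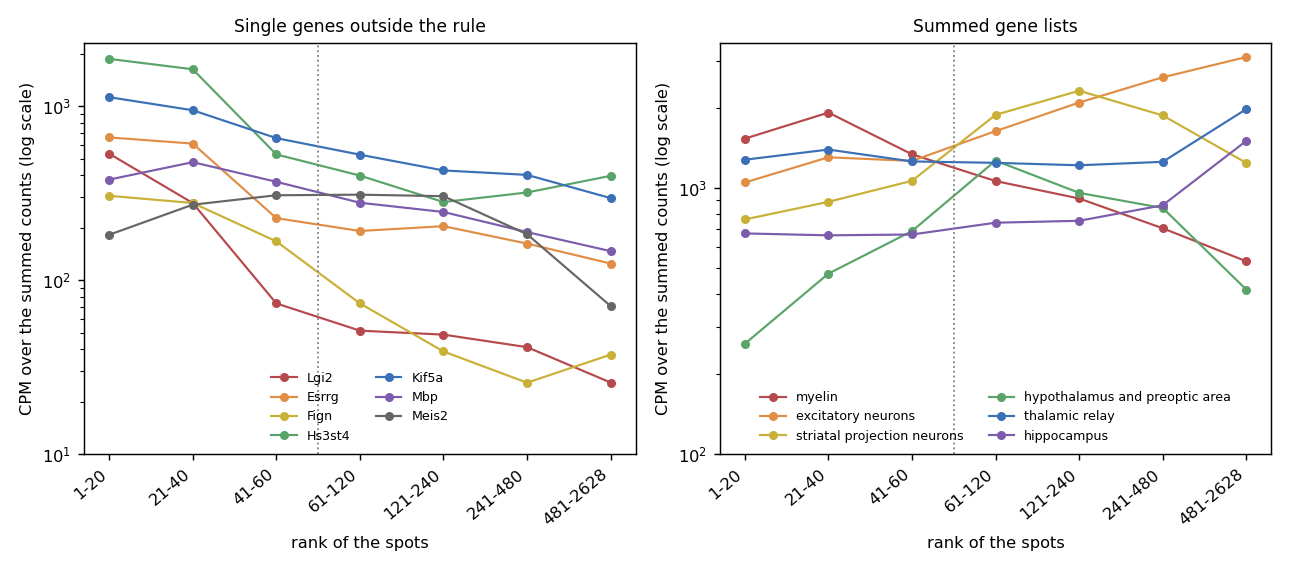
CPM over the summed counts (y axis, log scale) in groups of spots by rank (x axis), for 7 genes outside the rule (left) and 6 summed lists (right). The dotted line is the limit after rank 60. Lgi2 drops from 533 to 73.5 CPM within the members, Meis2 stays between 272 and 310 CPM from rank 21 to rank 240, and striatal and hypothalamic lists are highest outside the members.

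Other genes followed another course. Meis2 gave 182, 272 and 308 CPM in the 3 groups of members and 310 in ranks 61 to 120. The hypothalamus list went from 260 CPM in ranks 1 to 20 to 688 in ranks 41 to 60 and 1266 in ranks 61 to 120, and the striatal list from 761 to 1063 and 1881. Excitatory genes were lowest in the first 20 spots, at 1048 CPM, and reached 3101 beyond rank 480. Myelin genes gave 1531, 1918 and 1337 CPM in the members and 530 beyond rank 480.

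The members with and without a count of Six3 or Pvalb were also set side by side, in a division made after the values were seen. The 41 members with at least 1 count of Six3 or Pvalb held 401 CPM of Lgi2, 1636 of Hs3st4 and 602 of Esrrg. The 19 members without held 44.2, 611 and 230. The hypothalamus list was at 273 CPM in the former and 1097 in the latter. Of the genes that ranked the spots, Gad1 was at 884 and 522 CPM, Gad2 at 683 and 858 and Slc32a1 at 47.4 and 88.5, which is a description only. Pcp4l1 and Ctxnd1 had 51 and 54 counts in the former and 1 each in the latter. The 19 spots were shallower, with a median total of 5762 counts against 10769, so that a count is missed more easily there, and the part of depth in this division was not tested.

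No list placed more than 22 members among its top 10% of spots. Besides the 22 for myelin, these were 17 for the interneuron class markers, 15 for GABA handling, 14 for the reticular thalamus, pallidum and zona incerta list, 13 for the cortex list, 8 for the hypothalamus list and 4 for the striatal list. The excitatory, thalamic relay, fast-spiking and meningeal lists had none. The 8 members in the top 10% for hypothalamus genes all ranked from 21 to 60, and 12 of the 13 for the cortex list ranked from 1 to 40. Most counts of that list in the members were of Hs3st4.

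The same 2628 spots were also ranked by genes of the striatum, of thalamic relay neurons or of the hypothalamus. Of the 60 spots of each kind, 1, 0 and 2 were also members. Unrelated sets of 60 among 2628 spots would share few spots as well, so these overlaps are not read as a separation. The striatal spots held 269 CPM of Gad2 (interval 225.5 to 318) and 134 of Gad1 (104 to 170.4), below the members' 720 and 808. Their Six3 was 45.5 CPM and their Pvalb 5.93, against 159 and 140. They gave 834 CPM of Meis2, 247 of Penk, an opioid peptide precursor, and 2716 of Pde10a, where the members gave 245, 16.8 and 288. The hypothalamic spots held 196 CPM of Gad2, 108 of Gad1 and 14.7 of Six3. The thalamic relay spots held 7.34 CPM of Gad2, 3.67 of Gad1 and no Six3.

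Genes with the largest ratios in the members are given in the other sets as a description, since they were chosen for being high in the members. Lgi2 gave 325 CPM in the members, 45.5 in the striatal, 37.6 in the hypothalamic and 14.7 in the thalamic relay spots. Esrrg gave 524, 134, 140 and 95.4 CPM in the same order, and Syt2 168, 27.7, 21.2 and 12.8. Fign gave 258, 27.7, 84.9 and 136. Myelin genes summed to 1597, 1032, 593 and 679 CPM. Each set is also high by construction in the genes that ranked it.

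**Figure D5:**
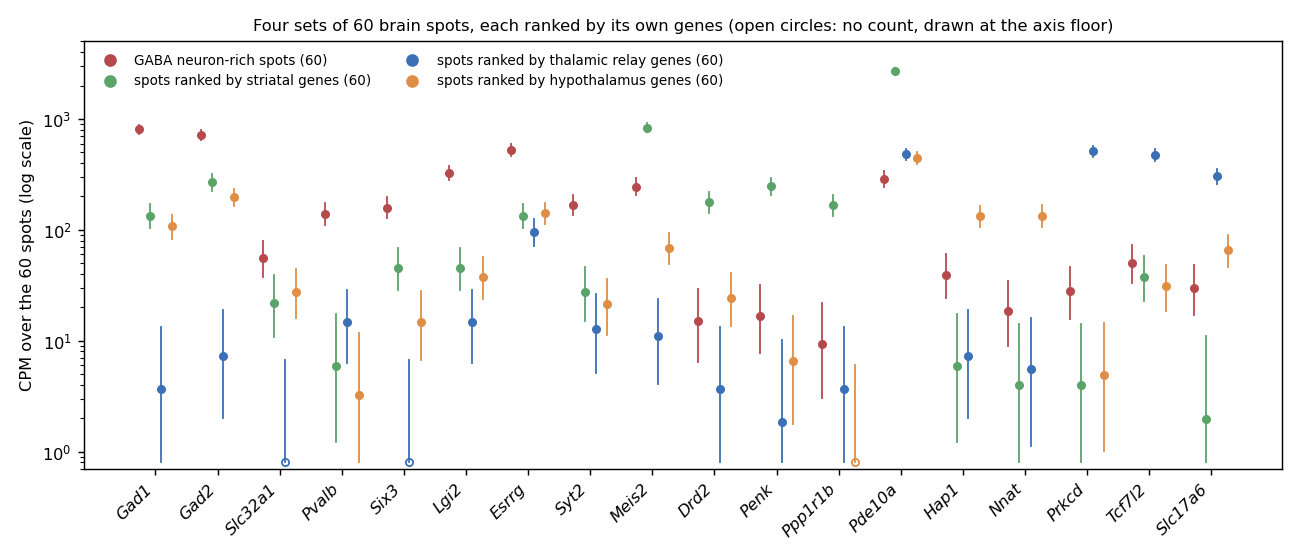
CPM over 60 spots (y axis, log scale, with 95% counting intervals as bars) of 18 genes (x axis) in 4 sets of brain spots, each ranked by its own genes. Gad1, Gad2, Slc32a1, Pvalb, Six3, Lgi2, Esrrg and Syt2 are highest in the GABA neuron-rich spots, Meis2, Drd2, Penk, Ppp1r1b and Pde10a in the striatal spots, Hap1 and Nnat in the hypothalamic spots, and Prkcd, Tcf7l2 and Slc17a6 in the thalamic relay spots. An open circle marks no count.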

How the data were processed

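The files are a sparse matrix per section, with lists of 40276 features and 4992 barcodes. Their values are counts that the authors deposited without normalization, made with STARsolo on mm39 per the submitters' processing notes. Its version and settings, such as merging of molecular tags, introns and strand, are not given in the sources used here. Totals were 37300503 counts for brain and 44768698 for heart. Spot positions were not used here.

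Counts were summed over spots and scaled to CPM. Intervals are exact Poisson, binomial or conditional binomial intervals. Spots were thinned without replacement (seed 1). The text names the 15 features with the largest ratios (counted in at least 10 members, no spot above 25% of the counts), the 10 with the smallest (counted in at least 10 other spots), up to 4 genes per list with the highest CPM, and list genes past 2-fold. Further list genes, all those below the floor included, were named after their values were seen. Some genes that the rule names are not reported here. The members and the 24 lists were chosen with earlier results of these data known. Overlaps and promoters were looked up in GENCODE and RefSeq on GRCm38, where all 131 named genes matched by ID. Of these, 71 overlap a gene on the other strand. Alternatives changed the scaling, the floor, the depth minimum, the number of members, the ranking genes and the spots compared. The scripts were tested on simulated data (Python 3.11.15, numpy 2.4.6, scipy 1.17.1).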

Additional observations from a re-analysis of the deposited data

Results flagged for a closer look

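Barcodes below the depth minimum took part in no comparison, yet they held counts of the 5 genes of the rule above the level of heart. The 2364 brain barcodes with fewer than 4000 counts or 200 features gave 699 counts of the 5 genes among 3192275. Their level was 219 CPM (203 to 236), against 17.0 CPM in heart and 154 CPM in the passing spots outside the members. The members, at 1883 CPM, were chosen by these genes and are left out of the 154 CPM. That value is therefore lower than the level of all passing spots, and it overstates how far the shallow barcodes stood above them.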

How the results depend on the processing

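With 1 library per tissue, the counting intervals do not cover variation between sections, and shallow spots with 6 to 10 counts of the 5 genes enter the ranking easily. Of 83 named genes past 2-fold, 46 stayed past it in the same direction under all 15 other settings listed for the ratios, 56 within the members' quartiles of depth and 65 with equal weights. The 83, like the 182 higher features, include the 5 genes of the rule, which the ranking itself makes high in most settings. Counts of genes that stayed therefore overstate how stable the other genes are. Among spots within the members' quartiles of depth, Hapln4 stood at 0.865 and Zbtb20 at 1.24. Of 182 higher features, 181 were also higher over counts outside ribosomal and mitochondrial RNA (357 in all), 162 with 30 members (309), 82 with 120 members (90), 100 within the quartiles of depth, 104 at a minimum of 8000 counts and 110 with equal weights. A floor of 10 CPM gave 425 and one of 50 CPM 101. Lower features numbered 482 with 30 members, 169 with 120, 209 at a minimum of 8000 counts, and 645 and 186 at the 2 floors. The excitatory list stood at 0.359 with 30 members, 0.458 with 120, 0.437 with equal weights, 0.486 at 8000 counts, 0.490 after thinning, 0.429 with Gad2 left out and 0.451 within the quartiles of depth. The inhibitory transcription factor list stood at 1.32 outside ribosomal and mitochondrial RNA, 1.15 with 30 members and 1.155 within the quartiles of depth (main value 1.24). The cause was not tested.

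In a division chosen after seeing the data, the 19 members without a Six3 or Pvalb count gave 550 higher and 508 lower features, of which 70 and 188 were shared, on 113018 counts. The excitatory list stood at 0.349 there. Pcp4l1 (0.424), Plch1 (0.879), Ctxnd1 (0.348), Aldh5a1 (0.944), Cacna1i (0.787), Scn4b (0.402), Unc13c (0.867), Nefm (0.852) and Hapln4 (0, no count) were on the other side of 1. Sums of 4 lists turned there: hypothalamus from 0.95 to 2.33, cortex from 1.305 to 0.904, endothelium from 1.08 to 0.75 and pan-neuronal from 0.99 to 1.01. Sums of 5 lists (endothelium, hypothalamus, microglia, pan-neuronal and striatal) changed side of 1 in 17 of 360 values under the other settings. No paired analysis was possible because each tissue has 1 library.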
